A study of Mus musculus with 9 samples.

Results

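The mouse collagen family was described in accessible chromatin maps of peritoneal macrophages. Its members were all protein-coding RefSeq genes (GRCm38) named Col, a number, the letter a and a number, which gave 44 genes among 21631 on chromosomes 1 to 19 and X. For each gene, peaks of the ATAC-seq lists were collected from 10 kb below the gene to 10 kb above it, a stretch called its window below. ATAC-seq marks open DNA by the insertions of the Tn5 transposase. The 9 samples were peritoneal macrophages sorted from mice of the genotype Cx3cr1CreERT2-IRES-EYFP/+ Rosa26-stopfl-tdTomato/+, in which a tamoxifen-dependent Cre expressed from the Cx3cr1 gene can switch on a tdTomato reporter. Monocyte-derived macrophages (3 samples) came from the cavity on day 4 after 2 ml of thioglycollate, an irritant that recruits monocytes. Tissue-converted macrophages (3 samples) came from mice that had received 2 ml of thioglycollate and ate tamoxifen diet without a break over the 8 weeks up to harvest. For tissue-resident macrophages (3 samples) no treatment of their own is given. All groups also received IL-4 complexes (5 µg of IL-4 with 25 µg of antibody against it), starting 4 days before harvest and repeated every other day, so no group lacks this alternative activation stimulus. No source used here gives the age, sex or strain of the mice. Cell origin and treatment differ together between the groups and cannot be told apart.

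Peaks came as 1 merged list for each group. No value below therefore has a spread between samples, no test between groups could be made, and the depth is unknown: a site without a call may be closed or simply under the detection limit. There were 33694 peaks for monocyte-derived, 15552 for converted and 24348 for resident cells, and these unequal lengths touch every comparison of counts. Peaks of any list that shared at least 1 bp were joined to a region, and a region, or site, counts as called in each list that gave a peak to it. Percentages of genes or sites carry exact 95% binomial (Clopper-Pearson) intervals, which cover counting error alone.

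Collagens are triple-helical proteins of the extracellular matrix. Fibrillar collagens bear tension in skin, bone, tendon and scar, type IV collagens form the sheets of basement membranes, and fibril-associated, network-forming and transmembrane members decorate or anchor these structures. Fibroblasts and related stromal cells make most of them. Macrophages are better known for cutting and taking up collagen, although transcripts of type VI and type VIII collagens have been described in them.

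Most collagen genes had little or no called open chromatin in these macrophages. A region of any list lay in the window of 20 of 44 collagen genes (45.5%, 30.4 to 61.2%), where 63.5% of all protein-coding genes had one, and 24 collagen genes had none. By list, 19 members had a region in monocyte-derived cells (43.2%, 28.3 to 59.0%), against 60.2% of all genes. In converted cells 9 members did (20.5%, 9.8 to 35.3%), against 43.2% of all genes, and in resident cells 15 did (34.1%, 20.5 to 49.9%), against 54.0%. A region of each list was present at 8 members (18.2%), against 40.9% of all genes. The median number of regions per collagen gene was 0 in every list, while over all genes it was 1 in monocyte-derived, 0 in converted and 1 in resident cells. These are descriptions of the lists, since genes are not replicates.

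**Figure D1:**
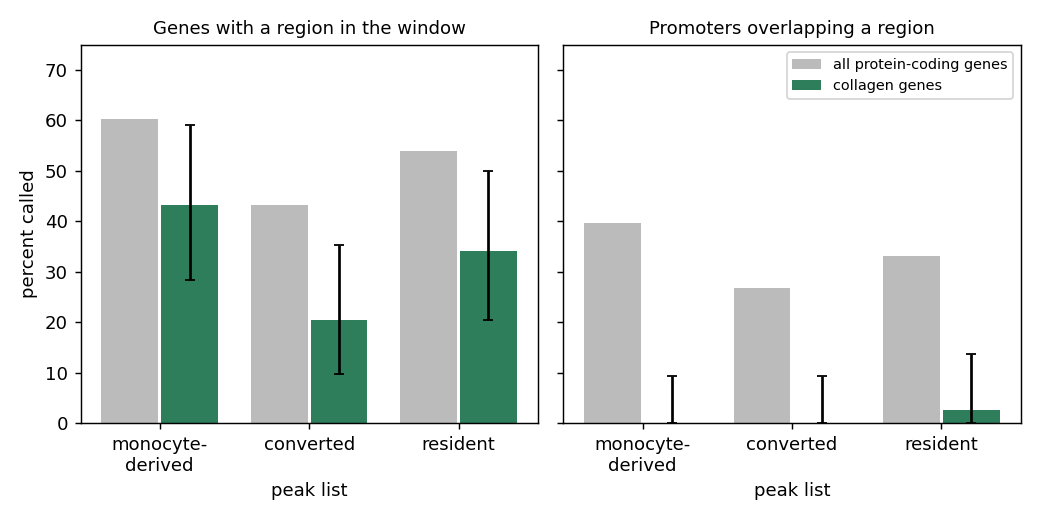
Percent of genes whose window holds a region (left) and percent of RefSeq promoters that overlap a region (right), in each peak list. Grey bars are all protein-coding genes and green bars collagen genes, with exact 95% binomial intervals over genes or promoters; the promoter bar of the collagen genes is at 0 in the monocyte-derived and converted lists and at 2.63% in the resident list.

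Within each class of window length, too, a smaller share of collagen genes than of all genes had a region. Collagen genes are long, with a median window of 134.0 kb against 37.3 kb for all genes, and a longer window has more room for a region. Among the 1745 genes with windows of 150 kb or more, 75.9% had a region in some list, and 10 of the 18 collagen genes of that size did. In windows from 50 to 150 kb the share was 77.8% of all genes and 7 of 17 collagen genes. In windows under 50 kb it was 56.1% and 3 of 9. Per Mb of window, summed over genes, collagen genes held 5.06 monocyte-derived, 1.9 converted and 3.95 resident regions, while all genes held 24.5, 10.7 and 16.2. Collagen genes with a region had windows of 44.1 to 440.0 kb (median 148.0 kb) and those without one 27.1 to 280.0 kb (median 126.5 kb).

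The promoters of collagen genes were almost without calls. RefSeq promoter sequences (GRCm38.p6, 250 bases before to 50 after a start site) were found for 35 of the 44 genes, with 38 start sites. A region overlapped 0 of these 38 promoters in the monocyte-derived list (0 to 9.25%), where 39.6% of all promoters were called, and 0 in the converted list, where 26.7% were. In the resident list 1 was called (2.63%, 0.0666 to 13.8%), against 33.2% of all promoters, and 41.5% of all promoters were called in any list. It belongs to Col23a1, a transmembrane collagen. The count stayed at 0, 0 and 1 when 1 kb on each side of each start site was taken instead, a window that held a region for 43.6%, 30.1% and 37.6% of all start sites. Genes without a promoter sequence could be judged by their ends alone, since the gene table has no strand. Within 1 kb of either end, 1 of 44 collagen genes had a region (2.27%, 0.0575 to 12%) in each list, again Col23a1. In the monocyte-derived and converted lists that region lay 0.639 kb beyond the 3' end of Col23a1, over the promoter of the neighbour Phykpl. Over all genes the share was 42.4% in monocyte-derived, 29.4% in converted and 36.9% in resident cells, and 44.9% in any list.

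Base composition moved with promoter calls in general. The ratio of observed to expected CpG had a median of 0.456 in collagen promoters and 0.574 in all promoters, and GC content a median of 59.8% and 56.7%. Of all promoters with a ratio of 0.5 or more, 67.6% were called in some list, against 9.7% of those below it. Of collagen promoters, 16 lay at or above 0.5 and 1 of them was called. The 15 CpG-rich ones without a call included Col4a1 (ratio 0.902), Col25a1 (0.86), Col13a1 (0.837), Col8a2 (0.832), Col4a2 (0.818) and Col5a1 (0.809). The other 22 collagen promoters lay below 0.5, and 0 of them were called. The part of base composition in the low count was not tested.

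The sequences of 7 promoters show these cases. The first 3 carry a region, and capitals mark the bases inside it. Col23a1 (chr11:51289670-51289969, plus strand) has its resident region over the start site, with 56 bases in the promoter window. Phykpl, which encodes an enzyme of hydroxylysine breakdown and starts just beyond the other end of Col23a1 (chr11:51584531-51584830, plus strand), lies under a region of all 3 lists with 267 bases. Mff, a mitochondrial fission gene beside Col4a3 (chr1:82724640-82724939, plus strand), has 201 bases in a region of the monocyte-derived and resident lists.
Col23a1: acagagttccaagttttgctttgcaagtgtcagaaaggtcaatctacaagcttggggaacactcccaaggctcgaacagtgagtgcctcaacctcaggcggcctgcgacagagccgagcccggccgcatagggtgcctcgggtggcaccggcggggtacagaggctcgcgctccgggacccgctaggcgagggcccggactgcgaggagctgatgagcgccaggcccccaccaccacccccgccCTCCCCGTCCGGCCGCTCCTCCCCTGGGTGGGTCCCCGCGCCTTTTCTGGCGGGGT
Phykpl: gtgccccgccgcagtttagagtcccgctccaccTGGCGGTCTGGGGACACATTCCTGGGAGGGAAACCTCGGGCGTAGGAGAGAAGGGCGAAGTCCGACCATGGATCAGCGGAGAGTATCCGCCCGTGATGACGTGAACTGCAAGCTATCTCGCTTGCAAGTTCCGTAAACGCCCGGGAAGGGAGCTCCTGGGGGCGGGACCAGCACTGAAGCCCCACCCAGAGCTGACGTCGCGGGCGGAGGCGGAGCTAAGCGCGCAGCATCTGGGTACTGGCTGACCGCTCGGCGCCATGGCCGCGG
Mff: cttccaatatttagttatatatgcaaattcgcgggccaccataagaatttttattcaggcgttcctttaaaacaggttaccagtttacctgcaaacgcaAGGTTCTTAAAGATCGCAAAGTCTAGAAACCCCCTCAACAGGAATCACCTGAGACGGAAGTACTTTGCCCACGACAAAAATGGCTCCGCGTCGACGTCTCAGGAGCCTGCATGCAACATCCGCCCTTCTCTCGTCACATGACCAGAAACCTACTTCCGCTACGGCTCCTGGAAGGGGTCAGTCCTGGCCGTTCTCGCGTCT

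The other 4 are promoters of major collagens that no list called. Col1a2 (chr6:4505368-4505667, plus strand) and Col3a1 (chr1:45311288-45311587, plus strand) encode chains of type I and type III collagen. Col4a1 (chr8:11312777-11313076, minus strand) and Col4a2 (chr8:11312555-11312854, plus strand) are read in opposite directions from start sites 21 bp apart, and their promoter windows share 78 bases. Capitals mark CCAAT and GGGCGG, on either strand, in Col1a2, Col4a1 and Col4a2, and TATAAA, on either strand, in Col3a1.
Col1a2: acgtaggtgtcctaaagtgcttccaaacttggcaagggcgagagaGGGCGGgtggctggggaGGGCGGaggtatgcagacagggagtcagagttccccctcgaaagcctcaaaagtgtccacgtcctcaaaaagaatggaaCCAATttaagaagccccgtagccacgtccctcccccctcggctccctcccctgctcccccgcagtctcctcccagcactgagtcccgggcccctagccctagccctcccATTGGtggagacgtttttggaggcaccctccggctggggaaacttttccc
Col3a1: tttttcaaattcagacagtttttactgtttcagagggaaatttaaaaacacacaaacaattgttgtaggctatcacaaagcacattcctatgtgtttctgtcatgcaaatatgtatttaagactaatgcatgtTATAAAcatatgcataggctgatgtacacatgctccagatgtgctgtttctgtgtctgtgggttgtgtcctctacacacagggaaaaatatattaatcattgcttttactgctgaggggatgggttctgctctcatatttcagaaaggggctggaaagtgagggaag
Col4a1: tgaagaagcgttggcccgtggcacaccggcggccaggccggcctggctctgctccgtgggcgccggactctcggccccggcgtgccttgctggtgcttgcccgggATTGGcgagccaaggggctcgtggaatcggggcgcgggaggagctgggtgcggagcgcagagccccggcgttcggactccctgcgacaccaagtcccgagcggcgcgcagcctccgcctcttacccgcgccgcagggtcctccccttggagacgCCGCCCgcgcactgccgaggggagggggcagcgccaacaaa
Col4a2: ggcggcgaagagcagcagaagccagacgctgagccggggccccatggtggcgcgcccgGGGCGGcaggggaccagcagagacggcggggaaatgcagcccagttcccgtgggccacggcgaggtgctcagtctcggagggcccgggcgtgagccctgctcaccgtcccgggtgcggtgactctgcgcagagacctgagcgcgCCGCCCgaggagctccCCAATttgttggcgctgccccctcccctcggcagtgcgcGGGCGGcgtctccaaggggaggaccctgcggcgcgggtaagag

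Searched on both strands, CCAAT, the core of the box bound by NF-Y, was found in 13 of 38 collagen promoters (34.2%) and in 38.5% of all promoters. GGGCGG, the GC box, was found in 23 (60.5%) and in 46.7% of all. TATAAA was found in 5 (13.2%), those of Col3a1, Col10a1, Col11a2, Col13a1 and Col17a1, and in 12.7% of all. TGANTCA, the AP-1 site, occurred in the promoter of Col6a1 alone (2.63%), against 7.04% of all, and GAGGAAGT, a PU.1-type ETS site, in 0 of 38, against 3.15%. Each motif was counted by itself, and none contains another. A match is a string of letters and no evidence of a bound factor.

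In all, 42 sites lay in collagen windows, 31 called in monocyte-derived, 12 in converted and 25 in resident cells. Of these, 27 (64.3%) lay inside a collagen gene and 2 (4.76%, 0.582 to 16.2%) within 1 kb of an end of one. Exons and introns are not distinguished because the gene table gives gene ends only. Another gene that is no collagen also had 12 of the sites in its window, and 1 further site lay in the windows of the neighbours Col9a1 and Col19a1. All 8 sites over a RefSeq promoter were in windows of this kind, and 7 of the 8 covered the promoter of the neighbour rather than that of the collagen gene. Within 1 kb of an end of any protein-coding gene were 23.8% of the collagen sites (12.1 to 39.5%), against 37.1% of all 36843 regions.

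**Figure D2:**
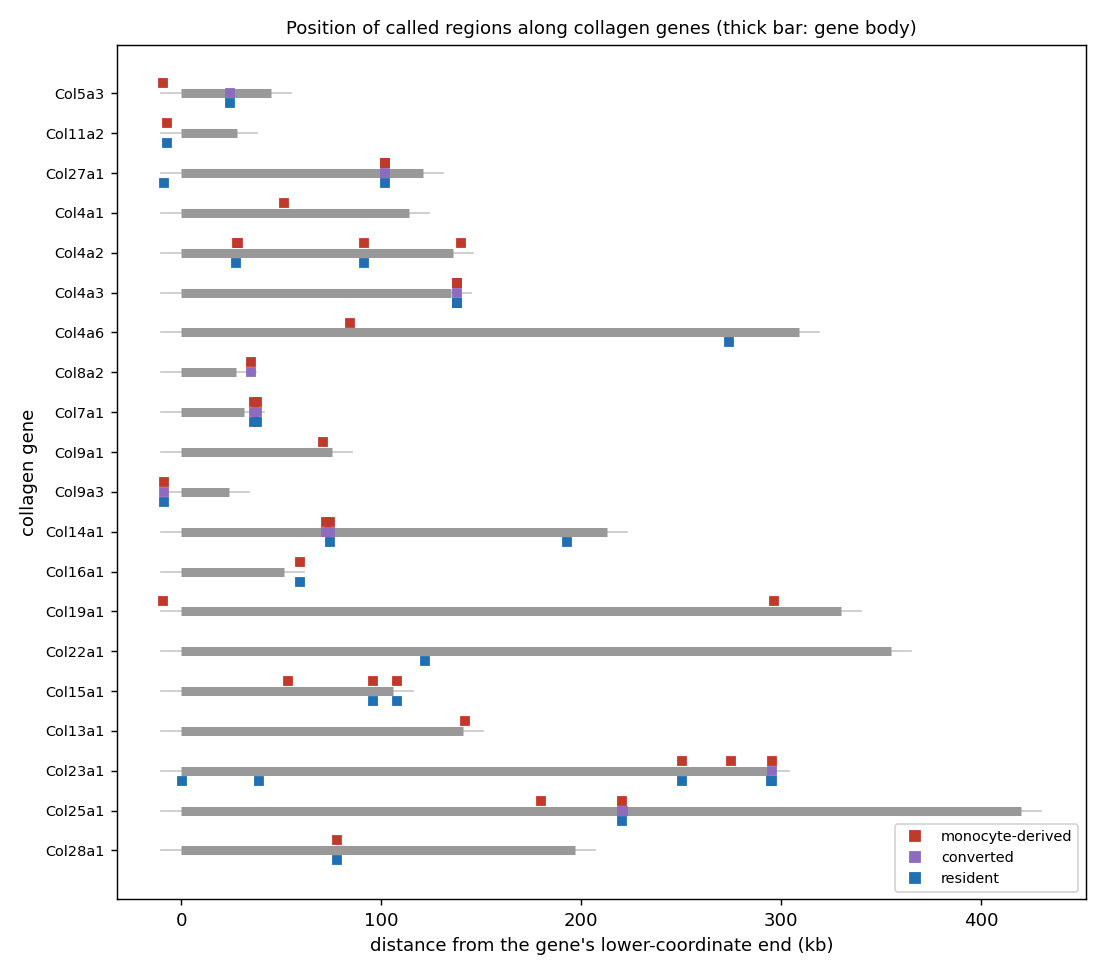
Position of each called region along the 20 collagen genes that have one, in kb from the lower-coordinate end of the gene. The thick bar is the gene body, the thin line the 10 kb on each side, and squares above, on and below the line are monocyte-derived, converted and resident calls; most squares sit inside the bar or at a neighbour's end, and the squares within 1 kb of an end of a bar are those of Col23a1.

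The fibrillar class had 3 of 11 genes with a region. The chains of type I collagen (Col1a1, Col1a2), type II (Col2a1) and type III (Col3a1), which make up the main fibrils of bone, cartilage and soft tissue, had none. Col5a1 and Col5a2, chains of the type V collagen that sets fibril width, also had none, nor did Col11a1 and Col24a1. Col5a3, a further type V chain, had 1 region in each list, at different places. Its monocyte-derived site lay 9.04 kb beyond the 3' end (chr9:20760814-20761013, p-value 2.07e-07). The converted and resident lists shared a site inside the gene (chr9:20794339-20794488) that the monocyte-derived list lacked, with p-values of 9.72e-06 and 8.27e-06. This was the one collagen site of both tissue lists alone. The converted p-value equals the largest of that list to 3 digits. Col27a1, a fibrillar collagen of cartilage, had 2 monocyte-derived, 1 converted and 2 resident regions. One, inside the gene (chr4:63316114-63316313), was called in all 3 lists, with p-values 3.55e-06, 3.77e-07 and 8.27e-06. A monocyte-derived site lay 75 bp from it (chr4:63316389-63316563), and a resident site 8.32 kb upstream of the gene (chr4:63205614-63205688). Col11a2 had 1 monocyte-derived and resident site (chr17:34031514-34031838), over the promoters of Rxrb, a retinoid X receptor gene, and Slc39a7, a zinc transporter gene, 7.08 kb upstream of the collagen gene.

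Basement membrane collagens had 10 sites, 8 in monocyte-derived, 1 in converted and 5 in resident cells, at 4 of 6 genes. Col4a2, which pairs with Col4a1 in nearly all basement membranes, held 5 of the 10, with 4 monocyte-derived, 0 converted and 2 resident regions. One site inside the gene, chr8:11403939-11404088, was called in both of these lists (p-values 4.87e-06 and 8.27e-06). Next to one another inside the gene lay a resident site (chr8:11340364-11340463) and a monocyte-derived site (chr8:11340464-11340563) that touched without overlap, followed by a second monocyte-derived site (chr8:11341314-11341388). The last monocyte-derived site lay 3.43 kb beyond the 3' end (chr8:11452714-11452838), 552 bp from the end of Rab20, a small GTPase gene. With every list shortened to the length of the converted one, keeping the smallest p-values and, at ties, the widest peaks, Col4a2 had 0 monocyte-derived, 0 converted and 2 resident regions, which turned the order of the lists. Col4a1 had 1 monocyte-derived site inside the gene (chr8:11249939-11250013, p-value 4.13e-06). Col4a6 had a monocyte-derived (chrX:141249764-141249913) and a resident site (chrX:141439489-141439613) far apart inside the gene. Col4a3, a chain of the kidney filter, had 2 monocyte-derived, 1 converted and 2 resident regions, all outside the gene and at its neighbour Mff. These sites (chr1:82724739-82724988 and chr1:82724989-82725213) were at the p-value floor of 1e-12 in monocyte-derived cells and lay at the start of that neighbour, 2.68 and 2.93 kb outside the collagen gene. Col4a4 and Col4a5 had no region.

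All 6 type VI genes, Col6a1 to Col6a6, whose chains form beaded filaments around cells, had no region in any list, over 0.594 Mb of window. Of the short-chain network collagens, Col8a1 and Col10a1 had none. Col8a2, a collagen of corneal and vascular basement layers, had 1 monocyte-derived and converted site (chr4:126321614-126321838, p-values 3.37e-06 and 6.93e-06), over the promoter of Adprhl2, which encodes an ADP-ribose hydrolase, 7.28 kb beyond the 3' end. Col7a1, the anchoring fibril collagen of skin, had 2 regions in each list and the highest density of any class, but both lay inside the neighbour Pfkfb4, which encodes a regulator of glycolysis. The site chr9:108989539-108989938 had p-value 1e-12 in monocyte-derived, 6.93e-06 in converted and 3.39e-06 in resident cells. The site chr9:108991464-108992013, over a Pfkfb4 promoter, had 1e-12, 1.03e-10 and 1.49e-08. Of the sites that the converted list called near collagens, the latter had the second smallest p-value there, after that of the site at Phykpl.

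Fibril-associated collagens had a region at 6 of 9 genes. Col14a1 encodes a collagen on the surface of tendon and skin fibrils. Its sites were among the 29 of all 42 collagen sites that lay in no other gene's window. Col14a1 had 2 regions in each list. One inside the gene (chr15:55381714-55381988) was called in all 3, at the floor of 1e-12 in monocyte-derived cells and at 6.74e-06 in converted and 3.39e-06 in resident cells. A second, 1425 bp below it (chr15:55380064-55380288), was called in monocyte-derived (p-value 1.69e-06) and converted cells (4.7e-06). The third, chr15:55500264-55500388, was resident only (8.43e-06). Col19a1, which acts at synapses, had 2 monocyte-derived regions. One was inside the gene (chr1:24553514-24553688) and one inside Col9a1, a cartilage collagen gene (chr1:24248389-24248488, p-value 7.44e-09), 9.2 kb from Col19a1. With 50 kb on each side the counts at Col19a1 were 10 monocyte-derived, 14 converted and 12 resident, which turned the order of the lists. Col22a1, a collagen of muscle-tendon junctions with a gene of 355.0 kb, had 1 resident region (chr15:71917764-71917888). Col9a3 had 1 site in all 3 lists (chr2:180589289-180589463, p-values 3e-06, 3.77e-07 and 5.63e-06), over the promoter of Ogfr, the opioid growth factor receptor gene. Col16a1 had 1 in monocyte-derived and resident cells (chr4:130107414-130107588), over the promoter of Pef1, which encodes a calcium-binding protein. Col9a2, Col12a1 and Col20a1 had none.

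Of the multiplexins, which sit at the edge of basement membranes, Col18a1 had no region. Col15a1 had 3 monocyte-derived, 0 converted and 2 resident regions, in no other gene's window. Its monocyte-derived site of smallest p lay inside the gene (chr4:47261189-47261363, 7.44e-09). A monocyte-derived (chr4:47303389-47303638) and a resident site (chr4:47303714-47303788) lay 75 bp apart, and chr4:47315514-47315638, 2.35 kb beyond the 3' end, was in both lists. At equal list lengths the counts were 1, 0 and 1.

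Transmembrane collagens had 10 sites at 3 of 4 genes. Col23a1 was the member with the most resident regions, 5 against 3 monocyte-derived and 1 converted. Its promoter site (chr11:51289914-51289988) was 75 bp wide with p-value 5.63e-06, in the resident list alone, and also lay in the window of Clk4, a kinase gene. A second resident site lay 39.0 kb into the gene (chr11:51328639-51328713, p-value 8.27e-06). Both the monocyte-derived and the resident list called chr11:51539689-51539888 (p-values 6.73e-06 and 1.31e-05), and the monocyte-derived list alone chr11:51565164-51565288. The site of all 3 lists at Phykpl (chr11:51584564-51584863) had p-values 1e-12, 1e-12 and 1.49e-08, and a further resident site lay inside Phykpl (chr11:51585039-51585113). At equal list lengths Col23a1 had 4 resident, 2 monocyte-derived and 1 converted regions. In the gene body alone it had 3 resident, 2 monocyte-derived and 0 converted regions. Without sites in another gene's window it had 2 resident, 2 monocyte-derived and 0 converted regions, so the resident excess rested on shared sites. Col25a1, a neuronal collagen found in amyloid plaques, had 2 monocyte-derived, 2 converted and 1 resident regions, all deep inside its gene of 420.0 kb. One (chr3:130400764-130400988) was called in all 3 lists, at 1e-12, 6.74e-06 and 5.06e-06. A converted site 575 bp above it (chr3:130401564-130401688, p-value 3e-06) was the one collagen site of the converted list alone, and a monocyte-derived site lay at chr3:130359964-130360038. Col13a1, a collagen of nerve-muscle synapses, had 1 monocyte-derived site 1.36 kb upstream (chr10:61980564-61980663, p-value 8.6e-06), and Col17a1 had none. Of the remaining members, Col28a1 had 1 site inside the gene in monocyte-derived and resident cells (chr6:8074989-8075113, p-values 3.77e-07 and 5.06e-06), and Col26a1 had none.

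**Figure D3:**
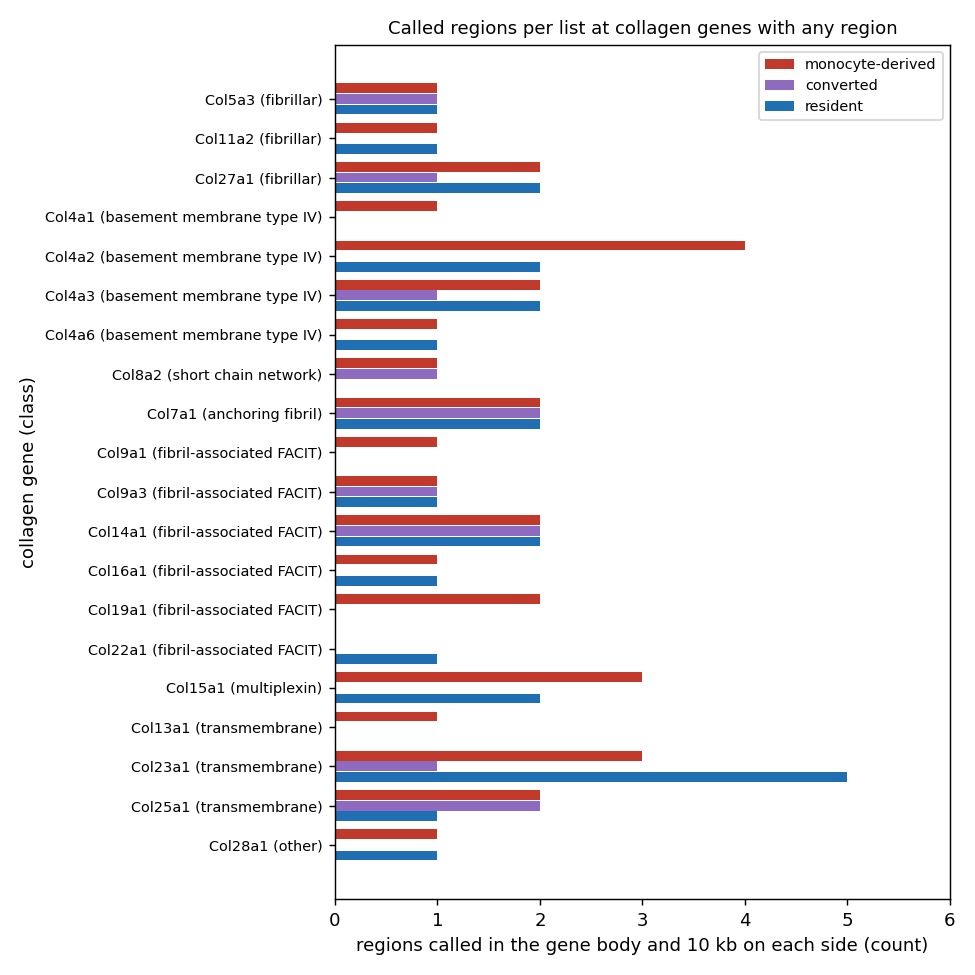
Number of regions called in each peak list in the window of each of the 20 collagen genes with any region, grouped by class; a missing bar is a count of 0. Col4a2 has the most monocyte-derived regions (4) and Col23a1 the most resident regions (5).

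The 10 kb limit of the windows left out many sites farther away. With 50 kb on each side there were 104 monocyte-derived, 47 converted and 69 resident sites. Of these, 10 monocyte-derived, 14 converted and 12 resident sites lay in the wider window of Col19a1 alone or with a neighbour. Within the 10 kb limit, the sites farthest from their gene lay 9.2 kb from Col19a1 and 9.04 kb from Col5a3. The nearest beyond it lay 10.8 kb from Col11a2 and 11.4 kb from Col2a1, the latter called in monocyte-derived and resident cells (chr15:97963989-97964238).

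Between groups, more collagen genes had an excess in the longer list than in the shorter one, as did all genes. More monocyte-derived than resident regions were found at 8 of 44 members (18.2%), against 35.0% of all genes, and more resident regions at 2, Col22a1 and Col23a1 (4.55%), against 7.59%. More monocyte-derived than converted regions were found at 13 (29.5%), against 45.3% of all genes, and more converted regions at 0, against 1.81%. More resident than converted regions were found at 10 (22.7%), against 29.2%, and more converted regions at 2, Col8a2 and Col25a1 (4.55%), against 4.44%. Differences of at least 2 regions were rarer. Monocyte-derived cells had at least 2 more than resident cells at 2 members (4.55%), Col4a2 and Col19a1, against 16.7% of all genes. Resident cells had at least 2 more at 1 (2.27%), Col23a1, against 1.46%. Without sites in another gene's window, the monocyte-derived and resident counts were 3 and 2 at Col4a2, 1 and 0 at Col19a1 and 2 and 2 at Col23a1. Monocyte-derived cells had at least 2 more than converted cells at 4 (9.09%), against 24.7%, and converted cells at 0, against 0.18%. Resident cells had at least 2 more than converted cells at 3 (6.82%), against 8.9%, and converted cells at 0, against 0.416%.

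The sum over all sites was 6 fewer in resident than in monocyte-derived cells (25 against 31). At equal list lengths it turned to 2 more in resident cells, with 17 against 15. Converted cells had 12 sites, 19 fewer than monocyte-derived and 13 fewer than resident cells. At equal list lengths these gaps were 3 and 5.

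By list pattern, 14 sites were monocyte-derived only (33.3%, 19.6 to 49.5%), against 39.5% of all regions, and 9 resident only (21.4%, 10.3 to 36.8%), against 11.0%. Sites of different lists that touched or lay close without overlap, as at Col4a2 and Col15a1, count here as sites of a single list. All 3 lists called 8 (19%, 8.6 to 34.1%), against 28.1% of all regions. Monocyte-derived and resident cells alone shared 7 (16.7%, against 14.4% of all regions), and monocyte-derived and converted cells 2 (4.76%, against 3.56%). Converted and resident cells alone shared 1 (2.38%, against 1.94%), and 1 was converted only (2.38%, against 1.55%). The resident-only share stood farthest above that of all regions and the share of all 3 lists farthest below. The interval of each share held the value of all regions. Collagen sites lie in gene windows by rule, and of the 29675 regions in a window of any protein-coding gene 10.0% were resident only. That value lay just below the resident-only interval of 10.3 to 36.8%, while the intervals of the other patterns held their gene-window values. The sites of all 3 lists were mostly those near other genes, and over the whole series such regions also lay nearer to genes. Of all regions called in all 3 lists, 58.3% lay within 1 kb of a gene end. Among all monocyte-derived-only and resident-only regions 24.4% and 25.4% did. Of the 12 sites that also lay in a non-collagen window 5 were in all 3 lists, and of the 29 in no other gene's window 3 were, those of Col14a1, Col25a1 and Col27a1.

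The authors' peak p-values placed collagen sites around the middle of the monocyte-derived list and without strong calls in the resident one. The median p over collagen sites was 3.02e-06 in monocyte-derived cells, the same as over all regions of that list, and 5.63e-06 in resident cells, again as over all regions. In converted cells it was 4.78e-06, against 1.69e-06. At the floor of 1e-12 were 7 of the 31 monocyte-derived sites (22.6%), against 19.4% of that list's regions, 1 of 12 converted (8.33%), against 23.0%, and 0 of 25 resident sites, against 15.0%. P-values rank peaks within a list and were not compared across lists. The 7 sites at the floor were those of Col7a1 inside Pfkfb4, of Col4a3 at Mff, of Col23a1 at Phykpl, and of Col14a1 and Col25a1. Only those of Col14a1 and Col25a1 lay in no other gene's window, so the share at the floor comes mostly from sites at neighbour genes.

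**Figure D4:**
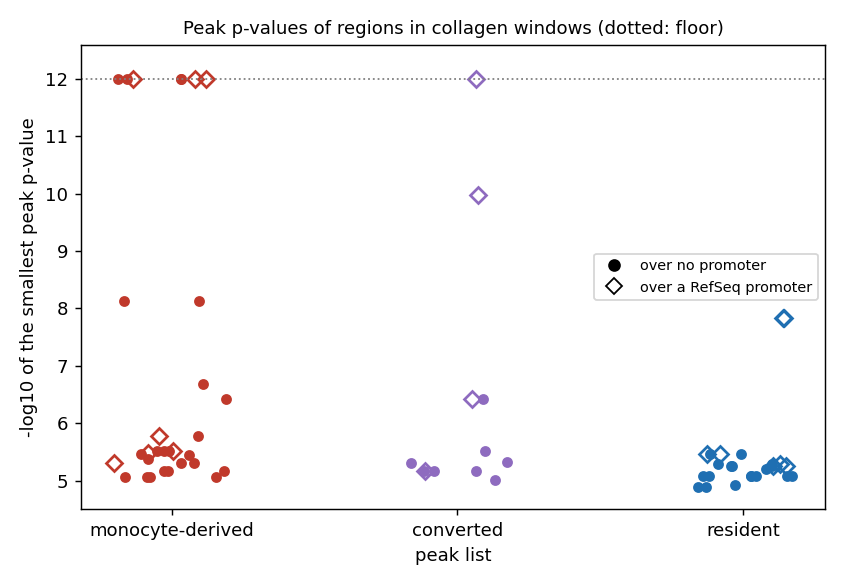
Minus log10 of the smallest peak p-value, as the authors deposited it, for each collagen site called in a list, with 31 monocyte-derived, 12 converted and 25 resident sites. Filled circles lie over no RefSeq promoter and open diamonds over one; the dotted line is the floor of 1e-12, reached by 7 monocyte-derived, 1 converted and 0 resident sites.

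Genes for the making of collagen chains had called promoters where the chains themselves did not. Of 18 genes for hydroxylation, folding and export of procollagen, 13 had a region in some list, against 63.5% of all genes. Of the 13 with a promoter sequence 9 were called at the promoter in monocyte-derived, 8 in converted and 9 in resident cells, where 42.5%, 29.2% and 36.0% of all genes were. P4ha1 and P4hb, which encode prolyl 4-hydroxylase subunits, P3h1 and Crtap, of the prolyl 3-hydroxylase complex, Ppib, a prolyl isomerase gene, Mia3, which loads procollagen for export, and the modifying enzymes Plod1 and Colgalt1 were the 8 called at the promoter in all 3 lists. Several of these proteins serve other clients too. Serpinh1, which encodes the collagen chaperone HSP47, had no region. Plod1, a lysyl hydroxylase gene, had 7 monocyte-derived, 4 converted and 5 resident regions, Mia3 4, 1 and 2, Colgalt1, a collagen galactosyltransferase gene, 4, 1 and 1, and P3h2 2 in each. P4ha2 had 2, 1 and 4, with a promoter call in resident cells alone. For all pathway and marker genes, here and below, regions that also lay in another gene's window were counted and not marked.

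Genes of processing and crosslinking outside the cell had fewer. Of 16, 7 had a region in some list, against 63.5% of all genes. Of 10 with a promoter sequence 1 was called, against 44.5% of all genes, Adamts3, a procollagen protease gene, in monocyte-derived cells. Lox, Loxl1, Loxl2 and Loxl4 of the lysyl oxidases had no region, while Loxl3 had 3 monocyte-derived, 2 converted and 2 resident regions. Fn1, the fibronectin gene, had 2, 1 and 1, Pcolce 2, 0 and 1, and Tnxb 1 in each. Of 16 genes of collagen degradation and uptake, 10 had a region in monocyte-derived, 4 in converted and 7 in resident cells, against 60.2%, 43.2% and 54.0% of all genes. Mmp2, a gelatinase gene, had 3 monocyte-derived, 4 converted and 3 resident regions, Mrc1, a mannose receptor gene whose product also binds collagen, 3, 0 and 2, Timp2, a metalloproteinase inhibitor gene, 2, 0 and 2, and Mmp19 2, 1 and 1. Promoters were called in some list at 2 of 11, Timp2 and Mmp8, against 44.5% of all genes. Of 9 receptor genes, 7 had a region in some list, against 63.5% of all genes. The integrin genes Itga1 and Itga2 had 7, 3 and 5 and 1, 1 and 6 monocyte-derived, converted and resident regions, Itgb1, their shared partner, 5, 3 and 3, and Itga10 2, 1 and 1. Receptor promoters were called at 2, 1 and 3 of the 9 genes, against 42.5%, 29.2% and 36.0% of all genes.

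**Figure D5:**
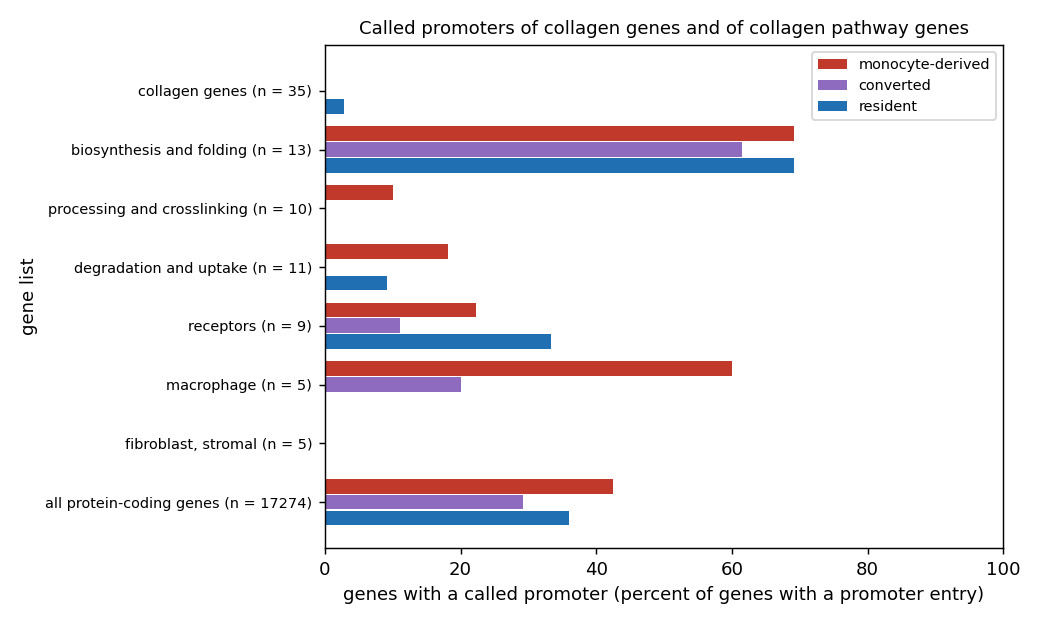
Percent of genes with a called promoter in each peak list, for collagen genes, for 4 lists of collagen pathway genes and 2 of cell markers, and for all protein-coding genes; n is the number of genes with a promoter sequence. The collagen bars are at 0, 0 and 2.86% of 35 genes, and those of biosynthesis and folding lie above all genes in each list.

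Marker genes of the labelled cells and of possible contaminants were counted the same way. All 9 macrophage markers had a region in monocyte-derived and resident cells and 4 in converted cells, with 24, 15 and 6 regions in all. Of the 5 with a promoter sequence, 3 were called there in monocyte-derived, 1 in converted and 0 in resident cells, so missing promoter calls also occurred at genes that macrophages are known to express. The counts were 4, 1 and 1 at Lyz2, 4, 2 and 2 at Cd68, 3, 2 and 2 at Cd14, 3, 0 and 1 at both Spi1 and Fcgr1, and 1, 0 and 4 at Adgre1, a gene that marks mouse macrophages. All 4 large peritoneal macrophage genes had a region in resident cells, 2 in converted and 1 in monocyte-derived cells. Garnl3 had 2, 3 and 6, Gata6, the transcription factor gene of these cells, 0, 2 and 1, and Timd4 and Icam2 0, 0 and 1 each. Of 10 fibroblast and stromal markers, 4 had a region, with 9 monocyte-derived, 4 converted and 3 resident regions, of which Pdpn, the podoplanin gene, had 6, 3 and 2. Pdgfra had 1, 0 and 1, Pdgfrb 1, 1 and 0 and Postn 1, 0 and 0, while Dcn, Lum, Thy1, Fbln1, Mfap5 and Pi16 were at 0 in every list. Of 8 mesothelial markers, Krt18 had 1 resident region and Msln, Wt1, Upk3b, Upk1b, Muc16, Krt8 and Krt19 were at 0. Of 4 endothelial markers 3 had regions, 4 monocyte-derived, 3 converted and 5 resident, at Pecam1 (1, 1 and 2), Cdh5 (2, 1 and 2) and Kdr (1 in each). The part of other cells in the collagen sites was not tested.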

How the data were processed

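ATAC-seq was made from 9 sorted samples. Per the submitters' processing notes, the tool was Bowtie2 2.2.9 and the genome mm10, that is GRCm38. Which program called the peaks, whether reads were shifted for the Tn5 cut, how duplicates were handled and how samples were merged: not given in the sources used here. Any of these steps can change which sites are called. The authors deposited 1 merged list for the 3 samples of each group, with a p-value for each peak, floored at 1e-12, and with peak edges on a grid of 25 bp. The list names carry 1e-05, yet 22.5% of resident, 3.76% of monocyte-derived and 0 converted peaks lie above it. Lists hold no counts, so depth and precision per sample are unknown.

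Peaks sharing at least 1 bp were merged to 36843 regions, counted in windows of RefSeq genes (GRCm38.p6) and over RefSeq promoters with Python 3.11.15, numpy 2.4.6, pandas 2.3.3 and scipy 1.17.1. Figures used matplotlib 3.10.9. Merging and counting were tested on simulated peaks. No test was run. Alternatives were p at most 1e-05 or 1e-10, equal list lengths, merging within 200 bp, windows of 0 or 50 kb, sites in no other gene's window and, for gene ends, 2.5 kb. Alternatives for promoters were chosen after seeing the data.

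The members, the lists of pathway and marker genes and the rules were chosen with earlier results of these data known. Every member is named, with coordinates for sites at members with 3 or more regions in a list, in all 3 lists, within 1 kb of a collagen end, in both tissue lists alone, or with p-values of at most 1e-10. Of the pathway and marker lists, the 4 genes with the most regions and genes whose lists differ by 3 or more are named. Other genes and sites named, and the promoters printed, were chosen after their values were seen.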

Additional observations from a re-analysis of the deposited data

How the results depend on the processing

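No paired analysis was possible because the 3 samples of a group were merged to 1 list with no replicate number, which also kept samples from being left out in turn. Unknown depth limits every missing call. Restricting lists to p at most 1e-05 or merging peaks within 200 bp left the total of sites and of genes in each list within 1.5 times its value and each difference between totals in its direction. Counts of single members did move, 3 at 1e-05 and 4 with merging.

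At equal list lengths, 15552 peaks each, monocyte-derived sites fell to 15 and collagen genes with one to 12 (while 45.9% of all genes had one). The resident minus monocyte-derived difference turned to 2, the converted minus monocyte-derived one was -3 and the converted minus resident one -5. At p at most 1e-10 there were 7 monocyte-derived, 1 converted and 0 resident sites, at 5, 1 and 0 genes (27.5%, 15.9% and 16.0% of all genes). This cut-off kept only the 6236 monocyte-derived, 3093 converted and 3134 resident peaks at the floor of 1e-12, so it repeats the floor counts. The converted minus monocyte-derived difference was then -6 and the converted minus resident one turned to 1. No site was in all 3 lists (0%), and 0 resident promoters were called.

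In gene bodies alone there were 18, 6 and 14 sites, at 11, 4 and 10 genes (49.5%, 34.2% and 43.4% of all genes), and differences of -12 (converted minus monocyte-derived) and -8 (converted minus resident). With 50 kb on each side there were 104, 47 and 69 sites at 30, 20 and 31 genes (75%, 62.3% and 72.2% of all genes). The resident minus monocyte-derived, converted minus monocyte-derived and converted minus resident differences were -35, -57 and -22. The window of Col19a1 held 10 monocyte-derived, 14 converted and 12 resident sites of these totals. Without sites in another gene's window there were 20, 6 and 15, at 12, 4 and 10 genes (31.1%, 21.3% and 27.6% of all genes), and 0% lay within 1 kb of a collagen gene's end. Here and with 50 kb on each side, the share of the 44 collagen genes with a region was below that of all genes, in part by little. With 50 kb it was 31 of 44 against 72.2% in the resident list. Without shared sites it was 12 of 44 against 31.1% in the monocyte-derived list. The gap was widest in the converted list, with 20 of 44 against 62.3% and 4 of 44 against 21.3%. No interval was computed for these settings. In both settings the gap was smaller, in every list, than with 10 kb on each side and shared sites kept. Fewer peaks, wider or narrower windows and removed sites change the totals by construction. For both differences that turned, the cause was not tested. For single members, 132 of 420 counts moved by more than 1.5 times.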
